A study of Mus musculus with 77 samples.

Results

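Pancreatic organoid cells that had expressed wild-type Neurogenin3 (WT Ngn3) for 8 days were compared with cells after 2 days of expression, to find which early responses to Ngn3 faded, stayed or appeared late. Organoids are three-dimensional cultures, grown here from the pancreatic ducts of adult C57BL/6 mice. They were infected with a lentiviral Tet-on system split over a pair of vectors, in which a drug-inducible promoter drives HA-tagged WT Ngn3 joined to GFP by a 2A peptide, and GFP+ cells were sorted in pools of 50 for RNA sequencing. Of the 77 libraries in 7 groups of the series, 23 came from WT Ngn3 cells, 18 of them at 2 days and 5 at 8 days. The 22 libraries with over 1000000 reads on genes were used, and the pools of one replicate were added together, which gave 3 biological replicates at 2 days and 3 at 8 days. The library left out was a pool of 8-day replicate 2 with 849278 reads.

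Each time point had its own control, and the controls differ in more than time. At 2 days the control was GFP+ cells infected with a vector for GFP only. At 8 days it was the cells labelled as the control of the WT Ngn3 cultures, whose columns are named no-color, so that the control cells of 8 days did not pass the GFP gate of the other groups. Each of these groups also had 3 replicates. Replicate 3 of both 8-day groups came from passage 5 and all other replicates from passage 2. The labels do not say what separates one replicate from the next, so each p-value measures the spread between these samples. Reads on Neurog3, the gene for Ngn3, cannot be assigned to the transgene or to the endogenous gene.

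The WT Ngn3 replicates held 17989677 to 23684049 reads on genes at 2 days, from 6 pools each, and 3034680 to 9762561 reads at 8 days, from 1 or 2 pools each. The number of pools thus moved with time in every replicate, and the comparison of the times was also run with 1 pool per replicate. Between 23124 and 23667 genes had a read in a 2-day replicate, against 16357 to 19785 at 8 days, and log-scale correlations between replicates were 0.968 to 0.976 at 2 days and 0.879 to 0.889 at 8 days. No-color replicate 3 stood apart, with 17.9% of its reads on the mitochondrial genome and 4.32% on ribosomal protein genes, against 5.44% to 11.2% and 1.08% to 1.81% in the other 11 replicates. Levels below are counts per 1000000 reads on genes (CPM) after TMM scaling, a fold change is a log2 difference from edgeR's quasi-likelihood fit with its SE, each group holds 3 replicates, and a gene was called at a Benjamini-Hochberg adjusted p under 0.05 over all 17139 genes tested. A gene with fewer reads may come from fewer cells of a type or from less RNA per cell, which cannot be told apart in pools.

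Ngn3 is the basic helix-loop-helix (bHLH) factor that starts the endocrine programme of the developing pancreas. It is switched on for a short time in duct-like progenitors, where it activates a second tier of transcription factors such as Neurod1, Insm1, Rfx6 and Pax4, and these in turn direct the formation of cells that store hormones in secretory granules. Like other proneural bHLH proteins it binds the E-box, a short motif of the form CANNTG, and it induces Notch ligands, through which a differentiating cell holds its neighbours back.

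The promoters of 4 genes that rose at 2 days are shown because they differ in their calls at 8 days. Bhlhe41 and Mtch1 were called lower at 8 than at 2 days, Atoh8 and Rfx6 were not, and Bhlhe41, Atoh8 and Rfx6 were called higher than the control cells at 8 days. They were chosen after the values were seen. Each sequence is the RefSeq window from 250 bases before to 50 bases after the start of the gene (GRCm38.p6, the same build as mm10), 5′ to 3′ on the strand of the gene, with every CANNTG in capitals. The windows lie at chr6:145865371-145865670 (minus strand) for Bhlhe41, chr17:29347883-29348182 (minus strand) for Mtch1, chr6:72235528-72235827 (minus strand) for Atoh8 and chr10:51685268-51685567 (plus strand) for Rfx6.
Bhlhe41: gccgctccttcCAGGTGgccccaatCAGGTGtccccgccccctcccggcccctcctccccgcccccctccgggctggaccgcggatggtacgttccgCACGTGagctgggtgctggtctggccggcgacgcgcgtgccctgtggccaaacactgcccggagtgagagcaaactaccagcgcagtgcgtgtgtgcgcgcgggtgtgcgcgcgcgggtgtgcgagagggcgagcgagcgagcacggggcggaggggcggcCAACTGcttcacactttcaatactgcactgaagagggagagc
Mtch1: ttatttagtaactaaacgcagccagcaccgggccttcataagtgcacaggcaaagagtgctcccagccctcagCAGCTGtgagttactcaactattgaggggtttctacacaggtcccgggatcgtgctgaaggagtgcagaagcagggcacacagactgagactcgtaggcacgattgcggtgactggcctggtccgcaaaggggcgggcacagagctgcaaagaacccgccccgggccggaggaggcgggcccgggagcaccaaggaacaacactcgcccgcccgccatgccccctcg
Atoh8: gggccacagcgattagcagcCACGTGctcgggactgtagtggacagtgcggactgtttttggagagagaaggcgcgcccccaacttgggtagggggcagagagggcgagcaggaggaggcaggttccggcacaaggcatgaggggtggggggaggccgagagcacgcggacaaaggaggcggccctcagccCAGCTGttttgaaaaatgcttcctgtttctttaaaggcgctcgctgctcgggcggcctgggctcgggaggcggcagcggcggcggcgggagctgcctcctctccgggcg
Rfx6: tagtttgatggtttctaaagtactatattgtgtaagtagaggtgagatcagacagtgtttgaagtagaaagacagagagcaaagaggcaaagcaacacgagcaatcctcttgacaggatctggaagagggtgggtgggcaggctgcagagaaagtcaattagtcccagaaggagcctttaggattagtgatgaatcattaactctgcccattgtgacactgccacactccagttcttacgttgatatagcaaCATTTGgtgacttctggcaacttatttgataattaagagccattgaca
The Bhlhe41 window held 4 E-boxes, that of Atoh8 2, and those of Mtch1 and Rfx6 1 each. Since CANNTG is its own reverse complement, 1 search covers both strands. It was found in 69% of the 268 windows available for the 373 genes higher at 2 days, in 63.5% of the 85 windows for the 125 genes called higher than the control at both times but not between the times, and in 63.6% of the 11174 windows of all genes tested. The version CAGCTG, which CANNTG includes, was found in 23.9%, 21.2% and 15% of these windows, and the version CAGATG, searched on both strands, in 17.9%, 15.3% and 11.7%. A match describes letters in a window and not a bound site.

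Neurog3 reads, from the transgene and the endogenous gene together, were fewer at 8 days in every replicate, though the difference did not pass the threshold. Neurog3 (chr10:62133090-62134763, plus strand, in mm10) stood at 203, 89.0 and 104 CPM in the 2-day WT replicates, with 31.4 to 402 reads in 1000000 reads on genes (RPM) in the 18 single pools. At 8 days it was 6.97, 46.4 and 14.5 CPM. The highest 8-day replicate was below the lowest 2-day replicate, and the log2 fold change was -2.58 ± 0.55 (adjusted p = 0.0803). The control groups were at 0.07, 0.04 and 0.05 CPM with GFP only and at 0.39, 0.22 and 0 CPM in no-color cells. The Neurog3 level thus fitted the group labels in all 12 replicates. It was higher than in the control at 2 days (11.09 ± 0.87, adjusted p = 1.55e-05) and at 8 days (6.18 ± 0.80, adjusted p = 0.00173).

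Between 2 and 8 days of WT Ngn3, 14 genes passed the threshold. 7 were higher at 8 days (0.0408% of the genes tested) and 7 were lower (0.0408%). At an unadjusted p under 0.05 there were 713 higher and 1049 lower genes. The replicates of the 2 times did not overlap in 1690 genes with all 8-day values above (9.86%) and 2262 with all below (13.2%). The number of calls depended on single replicates. It was 0 without WT replicate 3 of 2 days or of 8 days, 1 without WT replicate 1 or 2 of 2 days, 9 and 45 without WT replicates 1 and 2 of 8 days, 5 without any one GFP-only replicate, and 66, 70 and 121 without no-color replicates 1, 2 and 3. It was also 0 without the passage 5 replicates or with 1 pool per replicate. With 1 pool per replicate, 13 of the 14 genes could be fitted, Miat being removed by the filter on low counts. All 13 kept their sign, at 0.789 to 1.11 times the log2 fold change of the summed pools, with adjusted p from 0.171 to 0.542. The number of calls was 372 with DESeq2, which held all 14. Each of the 14 genes was called in 9 to 17 of 22 alternatives, Insm1, Depp1, Dusp4 and Mmp15 in 9.

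Of the 7 genes that fell from 2 to 8 days, 5 had risen at 2 days against GFP only: Miat, Insm1, Mtch1, Bhlhe41 and Mmp15. Of all genes tested 2.18% had risen, but both comparisons hold the WT libraries of 2 days, which favours such an overlap. Miat, a long noncoding RNA of neural tissue, had 47.5, 41.5 and 212 CPM at 2 days and 0.75, 1.29 and 0 CPM at 8 days. This was the largest fall among the 14 (-7.28 ± 0.88, adjusted p = 0.00918), and every pool of 2 days had a read of Miat against 2 of the 4 pools of 8 days. Its locus (chr5:112213228-112229395, minus strand) overlaps predicted noncoding genes. Neurog3, Bhlhe41, Ptms, Depp1, Mthfd2, Pla2g4a, Neurod1 and Dll4 also overlap another annotated gene, and since no source used here states the strand setting of the counting, their reads are uncertain to that extent. Insm1, a zinc-finger repressor needed for endocrine cells to mature, went from 62.8, 84.0 and 199 CPM to 19.3, 22.9 and 14.7 CPM (-2.61 ± 0.44, adjusted p = 0.0435). With a replicate block in the edgeR fit its log2 fold change was -2.50, without a call (adjusted p = 0.0515). In single pools Insm1 ranged from 32.1 to 321 RPM at 2 days and from 7.92 to 33.6 at 8 days. It lies on chr2:146221921-146225020 (plus strand).

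Mtch1, a protein of the outer mitochondrial membrane (chr17:29332072-29347934, minus strand), stood at 347, 328 and 380 CPM and then at 91.8, 100 and 69.2 CPM (-2.02 ± 0.26, adjusted p = 0.00918). Bhlhe41, a bHLH repressor of the circadian system (chr6:145858243-145865558, minus strand), stood at 219, 180 and 136 CPM and then at 45.5, 48.4 and 42.8 CPM (-1.97 ± 0.29, adjusted p = 0.0209). Mmp15, a membrane-bound matrix metalloproteinase (chr8:95352268-95375080, plus strand), went from 65.4, 64.3 and 52.7 CPM to 20.3, 14.2 and 21.7 CPM (-1.69 ± 0.28, adjusted p = 0.0421). For all 3 genes the lowest replicate of 2 days was above the highest of 8 days. At 8 days, Mtch1 was at 64.7, 113 and 99.6 CPM and Mmp15 at 22, 15.9 and 17.7 CPM in no-color cells, ranges that overlap those of the WT Ngn3 cells. Bhlhe41 and Insm1 were still higher than in no-color cells, by 1.85 ± 0.30 (adjusted p = 0.00546) and 5.93 ± 0.64 (adjusted p = 0.000436). Bhlhe41 was also lower in no-color cells of 8 days than in GFP-only cells of 2 days (-1.65 ± 0.29, adjusted p = 0.0487).

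The other 2 genes that fell were not part of the early response. Ptms, the small acidic nuclear protein parathymosin (chr6:124913681-124920103, minus strand), had 79.5, 83.7 and 99.3 CPM at 2 days and 11.6, 25.5 and 14.7 CPM at 8 days (-2.37 ± 0.39, adjusted p = 0.0367). Dusp4, a MAP kinase phosphatase (chr8:34807297-34819894, plus strand), had 39.5, 32.1 and 36.9 CPM and then 8.66, 11.3 and 12.3 CPM (-1.76 ± 0.30, adjusted p = 0.0435). Both were also lower in the no-color cells of 8 days than in the GFP-only cells of 2 days without passing the threshold, by -1.32 ± 0.37 and -1.39 ± 0.30 on the log2 scale.

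Of the 7 genes that were higher at 8 days, 3 had fallen at 2 days against GFP only, among them Vnn3 and Pla2g4a. Of all genes tested 0.794% had fallen, and the 2-day WT libraries shared by both comparisons again favour the overlap. Vnn3, a vanin of the pantetheinase family (chr10:23851462-23869843, plus strand), had 0.90, 1.72 and 1.80 CPM and then 7.81, 10.3 and 15.9 CPM (2.94 ± 0.44, adjusted p = 0.0261), against 57.4, 31.1 and 33.0 CPM in no-color cells. It is the single gene of the 7 that was still called lower than in no-color cells (-1.85 ± 0.42, adjusted p = 0.0327). Pla2g4a, a cytosolic phospholipase that releases arachidonic acid (chr1:149829618-149961290, minus strand), went from 22.2, 22.7 and 25.1 CPM to 67.2, 64.5 and 73.8 CPM (1.55 ± 0.25, adjusted p = 0.0281). These 8-day values overlapped those of no-color cells, at 60.5, 68.3 and 45.4 CPM.

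Slc7a3 alone met the definition of a late gene, called higher at 8 days than at 2 days and than in no-color cells, and not called at 2 days. It encodes a transporter of cationic amino acids and lies on chrX:101079210-101086020 (minus strand). The WT Ngn3 replicates had 2.94, 4.57 and 4.58 CPM at 2 days and 44.0, 14.5 and 73.6 CPM at 8 days (3.45 ± 0.54, adjusted p = 0.0266), and no-color cells had 9.10, 4.33 and 4.71 CPM (2.82 ± 0.53, adjusted p = 0.0143). Each of the 4 pools of 8 days, from 14.8 to 73.7 RPM, was above all 18 pools of 2 days, which reached 10.3. The pool left out for its depth had 3.53 RPM, from 3 reads.

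Also higher at 8 days were Mthfd2, Cyb5r1 and Depp1. Mthfd2, a mitochondrial enzyme of folate metabolism (chr6:83305691-83325908, minus strand), had 42.6, 46.8 and 41.1 CPM at 2 days and 152, 122 and 164 CPM at 8 days (1.75 ± 0.23, adjusted p = 0.00918). Cyb5r1, a cytochrome reductase (chr1:134405559-134411740, plus strand), had 75.7, 82.8 and 72.0 CPM and then 254, 177 and 339 CPM (1.74 ± 0.27, adjusted p = 0.0266). For both, all 8-day WT values lay above those of no-color cells, at 91.1, 107 and 83.7 CPM for Mthfd2 and 166, 119 and 140 CPM for Cyb5r1, without a call. Depp1, a regulator of autophagy downstream of FOXO factors (chr6:116650609-116652794, plus strand), had 8.81, 32.9 and 33.4 CPM and then 114, 130 and 142 CPM (2.36 ± 0.41, adjusted p = 0.0468), and stood higher still in no-color cells, at 364, 356 and 413 CPM. Depp1 and Vnn3 were also 2 of the 7 genes (0.0408%) called higher in no-color cells of 8 days than in GFP-only cells of 2 days, where 29 genes (0.169%) were called lower. That balance also turned, to 753 higher and 419 lower with DESeq2, 672 and 349 without a filter and 963 and 762 without no-color replicate 2, and was 3 and 5 with RLE scaling.

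**Figure D1:**
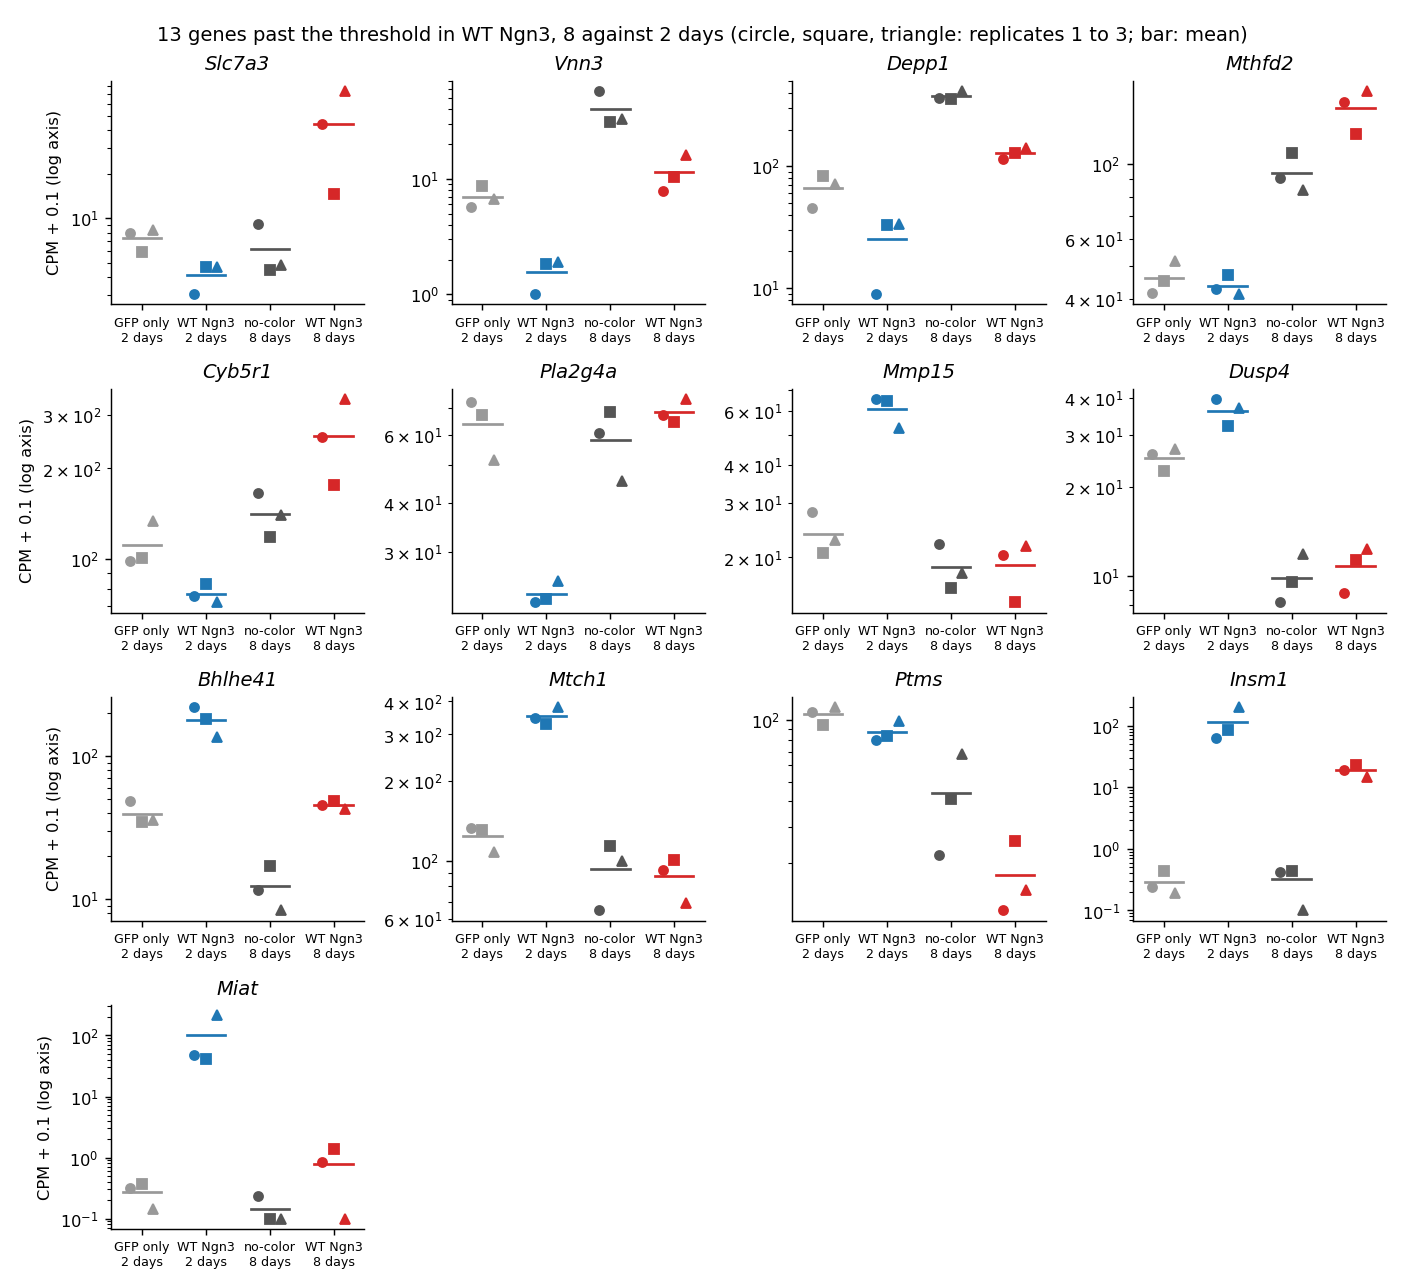
Levels of 13 of the 14 genes called between 8 and 2 days of WT Ngn3, in CPM plus 0.1 on a log axis, for each of 3 replicates (symbols) and their mean (bars) in GFP only and WT Ngn3 at 2 days and in no-color and WT Ngn3 cells at 8 days. Miat drops from 41.5 or more to 1.29 or less, and Slc7a3 is the single gene called higher than both the 2-day cells and the no-color cells.

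The early response was defined by the comparison of WT Ngn3 with GFP only at 2 days, in which 373 genes rose (2.18% of those tested) and 136 fell (0.794%). Fitted with the 2 groups of this comparison alone, 1351 rose and 1290 fell, a nearly even balance. In all, 2570 genes had every WT replicate above every GFP-only replicate (15.0%) and 2804 every one below (16.4%). At 8 days, WT Ngn3 was higher than no-color in 240 genes (1.4%) and lower in 136 (0.794%). The balance of directions turned with DESeq2, at 884 higher and 1031 lower, without a filter, at 751 and 1067, and without no-color replicate 1, 2 or 3, at 246 and 312, 1036 and 1210, and 218 and 268. This comparison shares no library with the 2-day one. Of the genes that rose at 2 days, 127 were also higher at 8 days, which is 34% of the 373 and 52.9% of the 240. Of those that fell, 39 were lower at 8 days, which is 28.7% of each list, and 0 genes were called in opposite directions.

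The 373 early-induced genes were then described at 8 days, where 246 of them were not called against no-color. In 191 of the 373 genes (51.2%), every WT Ngn3 replicate of 8 days was above every no-color replicate, against 1310 of all genes tested (7.64%), and in 1 of the 373 every one was below, against 1100 of all (6.42%). Their median log2 fold change was 3.98 against GFP only at 2 days and 2.45 against no-color at 8 days, or 2.25 with the 63 genes that have a group without reads set at their bound. The medians over all genes tested were -0.01 and 0. The genes were chosen for being called in the 2-day comparison, which by itself favours the larger median there. From 2 to 8 days of WT Ngn3 the median of the 373 genes was -1.11, with 341 below 0 and every 8-day replicate below every 2-day replicate in 199 (53.4%). Over all 17139 genes tested the median was -0.009, with 8681 below 0 and every 8-day replicate below in 2262 (13.2%). That last comparison holds the WT libraries of 2 days by which the genes were chosen, so it is no independent measure of their course.

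By the calls, 5 of the 373 genes faded, namely the 5 that fell from 2 to 8 days. This describes the level in WT Ngn3 cells, and 2 of the 5, Insm1 and Bhlhe41, were still higher than no-color at 8 days. Another 125 stayed, meaning higher than the control at both times with no call between the times. Both counts moved with the processing, to 86 and 268 with DESeq2 and to 2 and 16 with only the groups compared. With 1 replicate left out they were 0 to 31 and 75 to 184. Neurog3 is among the 125. The definition of the stayed class makes their medians high, 3.90 at 2 days and 3.71 against no-color at 8 days. From 2 to 8 days 112 of them had an estimate below 0, with a median of -0.81. In 61 (48.8%) every 8-day replicate was below every 2-day replicate, against 13.2% of all genes tested. These values too hold the 2-day libraries by which the genes were chosen, and a missing call does not show an unchanged level. In all, 246 early genes, 3 of the faded ones among them, were not called against no-color at 8 days, though 217 of these had an estimate above 0 and 25 below. The test of the difference itself, the time by Ngn3 interaction, called 0 genes by edgeR (smallest adjusted p = 0.295), with 1409 genes at an unadjusted p under 0.05. It called 92 genes by DESeq2, and 413 by edgeR without a filter on low counts, 82 of them higher and 331 lower.

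**Figure D2:**
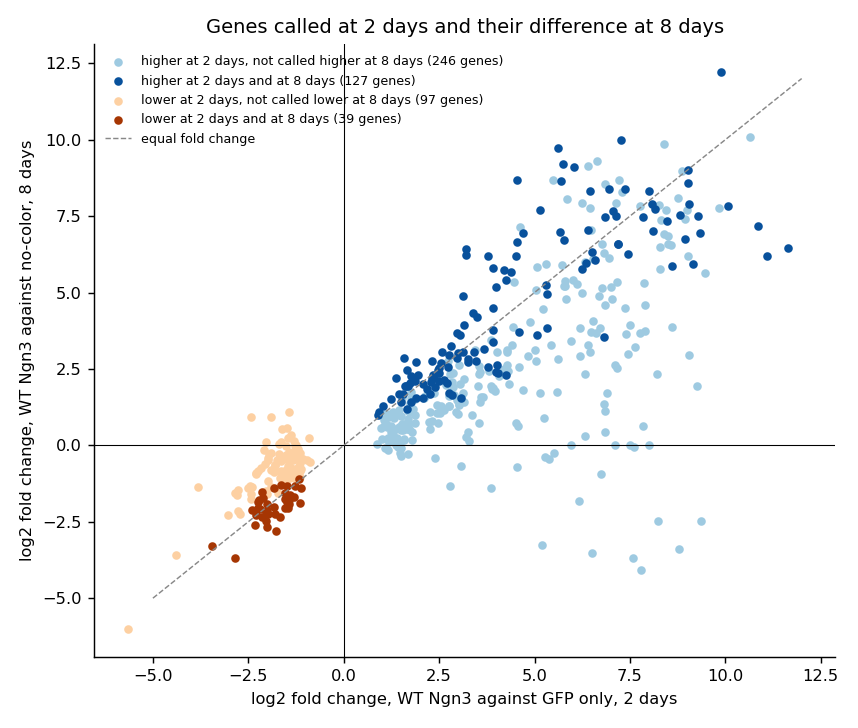
Fitted log2 fold change of WT Ngn3 against GFP only at 2 days (x axis) and against no-color at 8 days (y axis) for the 373 genes higher and the 136 genes lower at 2 days, coloured by the call at 8 days, with a dashed line at equal change. Most points keep their side of 0, and the 127 and 39 genes called at both times lie in the upper right and lower left. Fitted values of genes without reads in a group are not bounds.

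A small set of early genes was not seen at all at 8 days. 11 of the 373 had no read in any WT Ngn3 library of 8 days, as had 207 of all genes tested. The limit that 3 reads over the group allow is 0.160 CPM, so a level of 1.60 CPM or more at 2 days is needed to show a 10-fold fall. By that bound 7 of the 350 early genes over this level were at least 10-fold lower, and 23 of the 13580 genes of all kinds over it. The early genes were chosen for high values in the same 2-day libraries, and several passed the filter on low counts through that group alone, so the counts describe these genes and are no comparison with the others. Heyl, a Hes-related bHLH repressor, had 14.5, 9.77 and 2.34 CPM at 2 days and was at least 58.0-fold lower. Neurod2, a neuronal bHLH factor, had 3.41, 2.60 and 13.7 CPM and was at least 39.9-fold lower, and Dcx, the microtubule protein doublecortin of young neurons, had 5.09, 5.2 and 5.61 CPM and was at least 32.9-fold lower. None of the 3 passed the threshold (adjusted p of 0.0658, 0.0566 and 0.0509). Dcx had a read in 15 of the 18 pools of 2 days and Neurod2 in 17. The other 4, named here after their values were seen, were Ubd, Mmd2, Nwd1 and Slc24a4. No-color cells had 0.59 CPM or less of Heyl, Neurod2 and Dcx in every replicate.

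Endocrine transcription factors downstream of Ngn3 were in part still above the control at 8 days. Of the 21 tested genes of a list of 24 such factors, 15 rose at 2 days, against 2.18% of all genes tested, and 8 were higher than no-color at 8 days, against 1.4% of all, each of them among the 15. Hhex, a homeobox factor of ducts and of delta cells, fell at 2 days. The median of the list was 7.29 at 2 days and 5.93 at 8 days, or 4.75 with genes at their bound, and -1.40 from 2 to 8 days, with Insm1 the single call between the times and 6 genes whose 8-day replicates were all lower, against 13.2% of all genes.

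Neurod1, the bHLH factor directly downstream of Ngn3, had 44.9, 22.1 and 135 CPM at 2 days and 38.5, 21.6 and 0.80 CPM at 8 days. Replicate 3 of 8 days was near the no-color values of 0.26, 0.22 and 0 CPM, while replicate 1 was within the range of 2 days and replicate 2 just below it. The gene was called at both times, at 11.63 ± 1.47 (adjusted p = 0.000698) and 6.46 ± 1.26 (adjusted p = 0.0178), and the difference between the times was -1.72 ± 0.84 (adjusted p = 0.519). Rfx6, a winged-helix factor needed for islet formation, had 41.3, 15.1 and 96.0 CPM and then 49.4, 4.83 and 6.23 CPM (-1.30 ± 0.81, adjusted p = 0.636), with replicates 2 and 3 of 8 days below the range of 2 days. Atoh8, another bHLH factor, had 13.2, 11.3 and 8.24 CPM and then 3.29, 3.55 and 2.41 CPM (-1.82 ± 0.61, adjusted p = 0.305). Its replicates did not overlap between the times, and with 0 reads in no-color cells it was at least 26.9-fold higher in WT Ngn3 cells at 8 days.

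The factors Nkx2-2, St18, Cbfa2t3 and Pax6 were also higher than the control at both times. Nkx2-2, a homeobox factor of islets, had 16.9, 13.2 and 58.8 CPM at 2 days and 5.08, 14.2 and 4.83 CPM at 8 days. Cbfa2t3, a transcriptional corepressor, had 66.8, 86.9 and 155 CPM and then 22, 31.3 and 20.7 CPM (-2.07 ± 0.67, adjusted p = 0.282). Pax6, needed for alpha and beta cells, had 9.52, 0.88 and 8.24 CPM and then 33.3, 9.99 and 0.60 CPM. Cbfa2t3 was lower at 8 days in every replicate, while the ranges of Nkx2-2 and Pax6 overlapped.

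Isl1, Myt1, Fev and Pax4, which rose at 2 days, were not called at 8 days, where replicate 3 had no read of any of these 4. Isl1, a LIM homeobox factor of all islet cells, had 35.9, 8.16 and 37.1 CPM at 2 days and 74.8, 0 and 0 CPM at 8 days. Myt1, a zinc-finger factor of neural and endocrine cells, had 16.8, 14.5 and 41 CPM and then 15.7, 5.16 and 0 CPM. Mafa, a factor of mature beta cells, had no read in WT Ngn3 cells at either time, and Nkx6-1 stayed at 1.51 CPM or less.

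**Figure D3:**
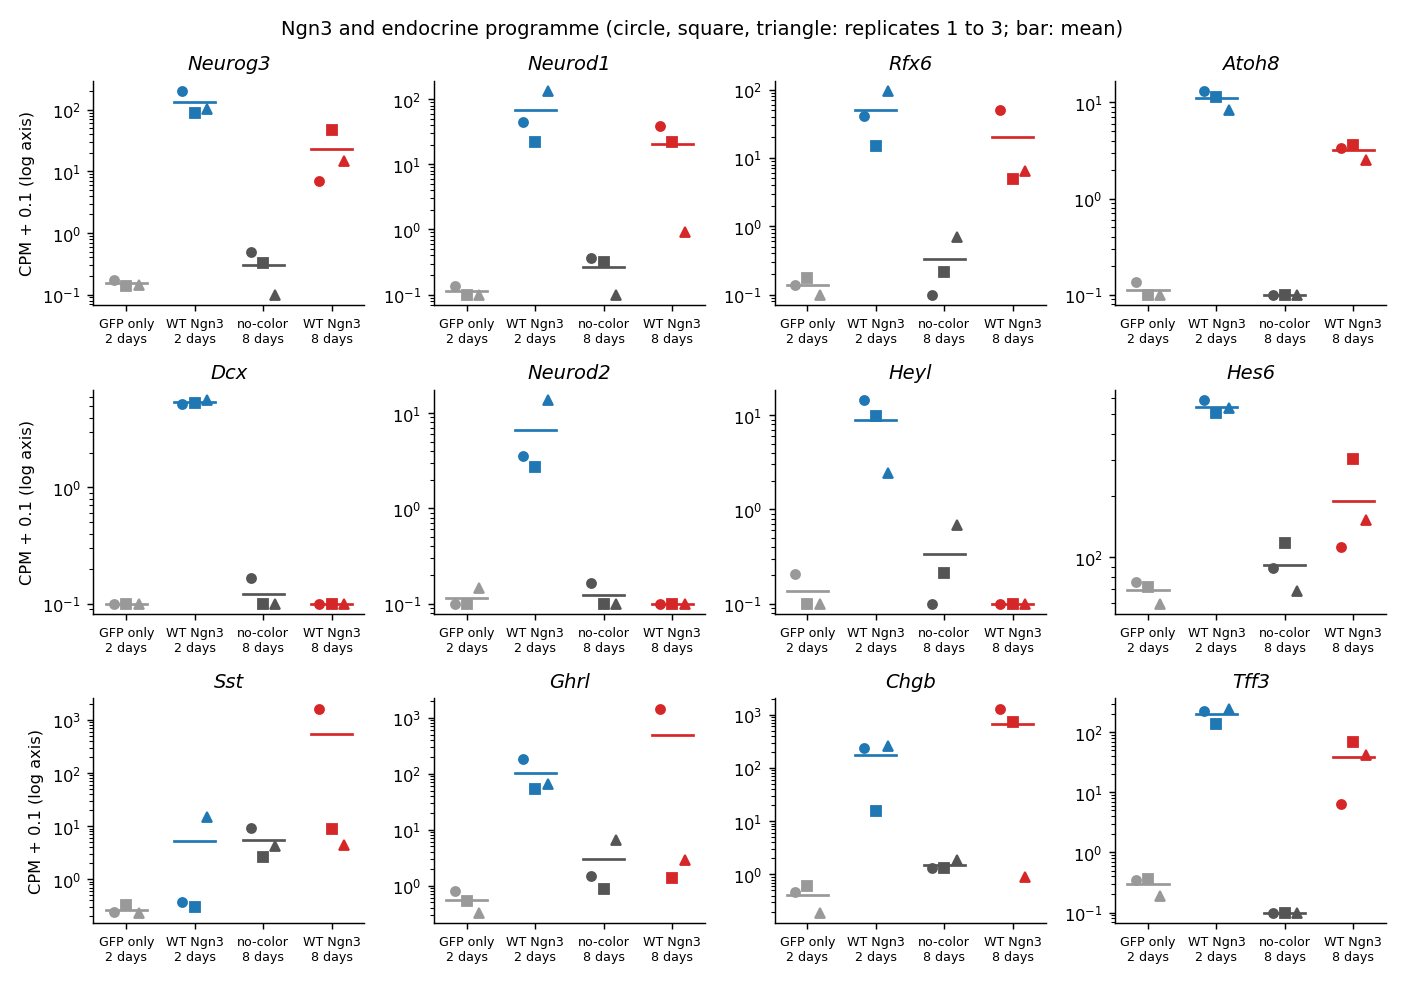
Levels of Neurog3, endocrine and neuronal factors, Notch targets, hormones, the granule protein Chgb and Tff3 in CPM plus 0.1 on a log axis, for each of 3 replicates (symbols) with their mean (bars) in the 4 groups. Dcx, Neurod2 and Heyl lie at 0 reads in all WT Ngn3 replicates of 8 days, and Sst and Ghrl are high in 1 of the 3.

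Hormone and granule genes differed widely between the replicates of 8 days. Of the 17 tested genes of a list of 28, 10 rose at 2 days and 8 were higher than no-color at 8 days, against 2.18% and 1.4% of all genes tested, and 0 were called between the times. The summed level of the list was 1049, 565 and 1511 CPM at 2 days and 6058, 1456 and 229 CPM at 8 days, against 60.4, 147 and 86.0 CPM in no-color cells. Replicate 1 of 8 days was thus above and replicate 3 below every replicate of 2 days. The median of the list was 6.95 against GFP only at 2 days and 7.74 against no-color at 8 days, or 5.75 and 7.35 with genes at their bound, and 1.24 from 2 to 8 days.

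Sst, the delta cell hormone somatostatin, had 0.27, 0.21 and 14.8 CPM at 2 days and 1626, 8.70 and 4.42 CPM at 8 days. The no-color cells of 8 days had 9.16, 2.55 and 4.12 CPM, so that replicate 1 alone stood above them. The log2 fold change of 6.75 ± 2.17 (adjusted p = 0.289) was 0.35 without that replicate. Ghrl, the hormone ghrelin of epsilon cells, had 186, 54.0 and 65.9 CPM at 2 days, and at 8 days 1459 CPM in replicate 1 against 1.29 and 2.81 CPM in the other 2. Its log2 fold change was 2.26 ± 1.63 (adjusted p = 0.704) with all replicates and -5.57 (adjusted p = 0.0491) without replicate 1, where the adjusted p over all alternatives ran from 1.71e-08 without a filter to 0.984, so that the direction for Ghrl rests on 1 replicate.

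Single pools of 50 cells also differed. Sst was found in 9 of the 18 pools of 2 days, with at most 107 RPM, and in all 4 pools of 8 days, at 3063 and 430 RPM in the pools of replicate 1, 8.90 in that of replicate 2 and 4.43 in that of replicate 3. The pool of replicate 2 that was left out for its depth had 436 RPM of Sst and 332 of Ghrl, far above the 8.90 and 1.32 of the pool used. Pyy, peptide YY, was found in none of the 18 pools of 2 days and at 645 and 70.5 RPM in the pools of replicate 1 at 8 days. Tph1, the enzyme that starts serotonin synthesis, reached 74.1 RPM in the pool of replicate 2 and no more than 3.56 in any pool of 2 days. Among the pools used, Sst and Pyy were thus high in replicate 1 and Tph1 in replicate 2.

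The granule proteins Chga and Chgb rose early and were high in 2 of the 3 replicates of 8 days. The other was replicate 3, the single WT Ngn3 replicate of passage 5, with 1 pool. The part of the passage in the low endocrine levels of this replicate was not tested. Chga, chromogranin A, had 94.5, 40.9 and 223 CPM at 2 days and 286, 241 and 0.80 CPM at 8 days. Chgb, chromogranin B, had 236, 15.1 and 263 CPM and then 1297, 740 and 0.80 CPM, and both were called against the control at both times. The prohormone convertase Pcsk1 had 15.9, 6.55 and 24.7 CPM and then 96.9, 9.35 and 10.2 CPM, highest in replicate 1 and above all no-color replicates (8.38 ± 1.23, adjusted p = 0.00357). Scg3, Ptprn2 and Cryba2, proteins of granules or of islet cells, were also called at both times, with differences between the times of 1.17 ± 0.82, -0.40 ± 0.69 and -0.60 ± 0.70.

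Insulin, glucagon and pancreatic polypeptide were at or near 0. Ins2 had no read in any of the 12 replicates and Ins1 none in WT Ngn3 cells. Gcg was seen in 1 replicate of 2 days, at 1.72 CPM, and Ppy in 1 replicate of 8 days, at 1.79 CPM. The 10 tested genes of beta cell function had medians of 3.25 at 2 days, or 2.89 with genes at their bound, and 3.39 at 8 days. Of these genes 2 rose at 2 days and 2 were higher than no-color at 8 days, against 2.18% and 1.4% of all genes. The latter were Gng4, a G protein subunit, and Abcc8, the sulfonylurea receptor of the KATP channel, which had 6.42, 7.59 and 6.87 CPM at 2 days and 88.1, 13.9 and 0 CPM at 8 days.

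**Figure D4:**
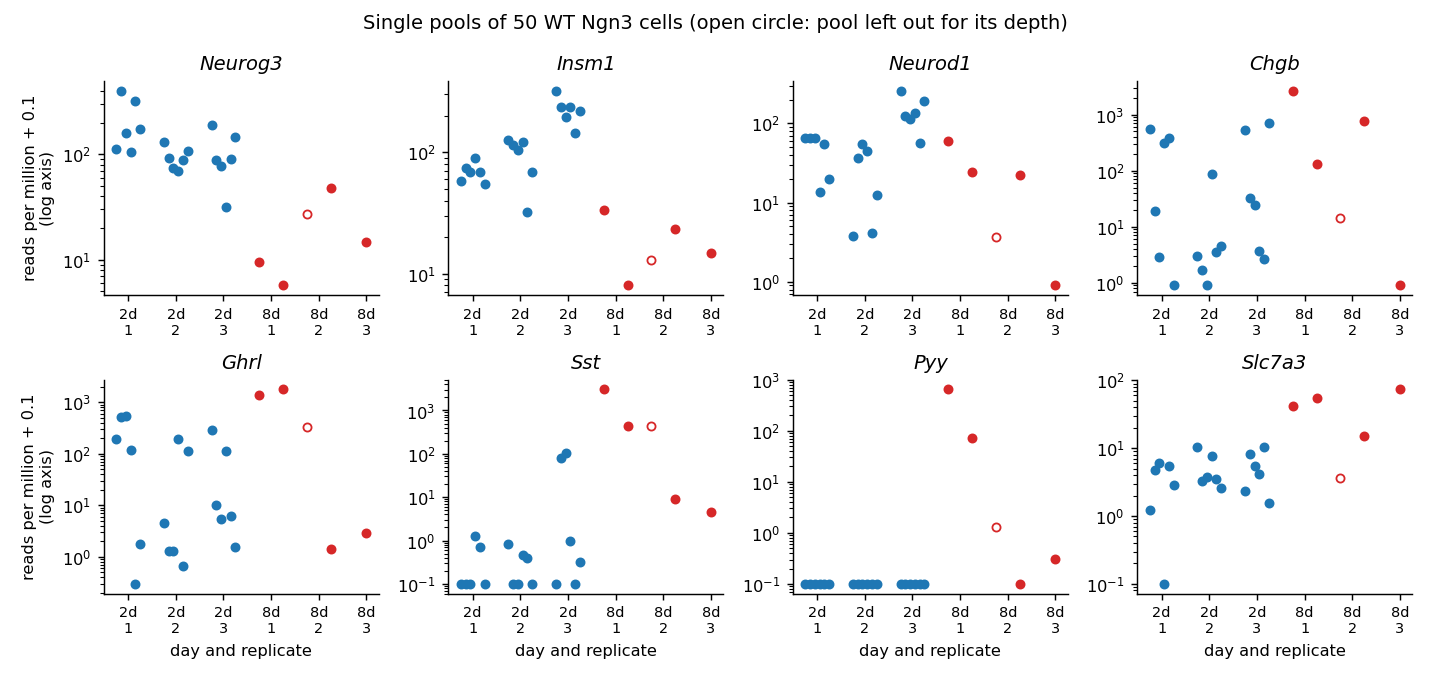
Levels, as reads in 1000000 plus 0.1 on a log axis, in every single pool of 50 WT Ngn3 cells, by day and replicate, for 8 genes. Neurog3 and Insm1 are mostly lower in the pools of 8 days, with 1 pool of 2 days at 31.4 and 32.1 inside their range, Slc7a3 is higher in all 4 pools used, and Sst, Ghrl and Pyy are high in both pools of replicate 1. The open circle is the pool left out for its depth.

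Tff3, a trefoil peptide of mucous cells and the single gene of the gastric list to be called, was one of the strongest members of the response at both times. It had 226, 139 and 248 CPM at 2 days and 6.21, 69.3 and 42.2 CPM at 8 days, with 0 reads in no-color cells. The 8-day replicates were below those of 2 days (-2.40 ± 0.63, adjusted p = 0.184) and at least 227-fold above no-color. Tff2, of the same family, rose at 2 days and had 17.4, 5.25 and 5.02 CPM then and 0.56, 3.55 and 2.81 CPM at 8 days.

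Some neuronal genes, which share regulators with endocrine genes, were also induced. Of 22 tested genes of a pan-neuronal list, 9 rose at 2 days and 5 were higher than no-color at 8 days, against 2.18% and 1.4% of all genes tested, with medians of 3.49 and 1.79, and -0.70 from 2 to 8 days. Those called at both times were Nptx1, Nefm, Snap25, Cplx2 and Ncam1. Nptx1, a neuronal pentraxin, had 54.9, 85.5 and 117 CPM and then 23.5, 52.9 and 10.9 CPM (-1.58 ± 0.55, adjusted p = 0.322), lower at 8 days in every replicate. Ncam1, a cell adhesion molecule of neurons and islets, was level, with 54.9, 57.1 and 52.0 CPM and then 65.7, 51.9 and 49.2 CPM (0.03 ± 0.32). Tubb3, neuronal tubulin, had 65.5, 47.9 and 89.9 CPM and then 34.9, 23.9 and 9.65 CPM (-1.56 ± 0.71, adjusted p = 0.462). Gad1, which makes GABA, had 9.09, 15.5 and 9.31 CPM and then 0.66, 4.19 and 0.20 CPM (-2.90 ± 1.28, adjusted p = 0.451).

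Of the 21 tested genes of the Notch pathway, 4 rose and 1 fell at 2 days, against 2.18% and 0.794% of all genes tested. At 8 days 1 was higher than no-color, against 1.4% of all, a ligand that had also risen at 2 days. Between the controls 1 was called lower in no-color cells, against 0.169% of all. Dll4, a Notch ligand, had 10.6, 7.64 and 28.4 CPM at 2 days and 6.68, 9.67 and 17.7 CPM at 8 days and was higher than the control at both times (4.69 ± 0.73 and 6.95 ± 1.02, adjusted p of 0.00268 and 0.00357). Dll1, the ligand most often tied to Ngn3, was not called at either time, at 38.7, 37.8 and 25 CPM and then 23.2, 26.8 and 7.84 CPM. Hes6, a bHLH protein that opposes Hes1, rose at 2 days and went from 590, 509 and 538 CPM to 112, 304 and 152 CPM (-1.53 ± 0.33, adjusted p = 0.0858). Hes1, the main Notch effector, had 477, 409 and 495 CPM at 2 days and 25.9, 146 and 57.5 CPM at 8 days (-2.60 ± 0.89, adjusted p = 0.314). The no-color cells, however, spanned 33.0, 271 and 1140 CPM for Hes1. Of the 21 tested genes of the pathway, 9 had every 8-day replicate below every 2-day replicate and 0 above, against 13.2% and 9.86% of all genes tested, none of them called, with a median of -0.73. Between no-color cells of 8 days and GFP-only cells of 2 days 5 of the 21 were all below and 1 all above, against 14.4% and 8.32% of all genes. Jag1, a ligand that ducts express, fell at 2 days, with 96.8, 96.7 and 93.7 CPM then and 91.9, 106 and 98.1 CPM at 8 days.

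Ductal genes had medians below 0 against the control at both times, at -0.53 and -0.49. Of 25 tested ductal genes, 12 had every WT Ngn3 replicate below every GFP-only replicate at 2 days (16.4% of all genes) and 6 every one below no-color at 8 days (6.42% of all). In the other direction, 4 had every replicate above GFP only (15.0% of all) and 1 every one above no-color (7.64% of all). From 2 to 8 days, 5 had every replicate higher and 2 every one lower, against 9.86% and 13.2% of all genes. Called higher were 2 at 2 days, Prom1 and Tff2 (2.18% of all), and 0 at 8 days. Called lower were 3 at 2 days and the same 3 at 8 days, against 0.794% of all genes at each time: Krt19, a keratin of duct cells, Muc1, a membrane mucin, and Car2, a carbonic anhydrase. Krt19 had 153, 242 and 259 CPM at 2 days and 235, 384 and 244 CPM at 8 days, against 649, 582 and 659 CPM with GFP only and 1174, 1050 and 694 CPM in no-color cells. Muc1 had 214, 200 and 202 CPM and then 317, 343 and 317 CPM (0.67 ± 0.30, adjusted p = 0.456), with every 8-day value above those of 2 days. Spp1, osteopontin, the most abundant ductal gene of the list, had 4740, 4273 and 4562 CPM at 2 days and 10590, 7184 and 9222 CPM at 8 days (0.99 ± 0.34, adjusted p = 0.299). Krt7 was level, with 1325, 1219 and 1262 CPM and then 1171, 1247 and 990 CPM. Prom1, a membrane protein of duct and progenitor cells, rose at 2 days and remained at 1212, 1706 and 1614 CPM at 8 days, from 1601, 1570 and 1520 CPM.

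The ductal identity given by the labels was seen in all 12 replicates, with reads for each of the 25 ductal genes in every group. The summed ductal level was 14840 to 15620 CPM in WT Ngn3 cells at 2 days and 18960 to 21230 CPM at 8 days, against 21540 to 23380 and 21160 to 46990 CPM in the controls. Markers of other cells were low, apart from Vim. The summed level of 17 acinar genes was 1.71 to 4.93 CPM at 2 days and 0.32 to 11.8 CPM at 8 days, against 4.69 to 7.69 and 11.9 to 24.5 CPM in the controls, with Cpa1, Cpb1, Amy2a5 and Ptf1a at 0 in all replicates, and 8 immune genes summed to 4.57 to 8.14 and 7.44 to 18.5 CPM, against 9.93 to 12.4 and 5.30 to 20.9 CPM, with Cd3e and Tyrobp at 0. Among stromal genes, Col3a1, Lum and Thy1 were at 0, and the sum of 48.2 to 107 and 24.3 to 74.7 CPM was nearly all Vim, against sums of 9.82 to 17.4 CPM with GFP only and 7.07 to 123 CPM in no-color cells. Vim, the intermediate filament vimentin, had 102, 62.4 and 45.6 CPM in WT Ngn3 cells at 2 days, above the 6.82, 13.1 and 11.1 CPM with GFP only in every replicate but not called (2.76 ± 1.01, adjusted p = 0.247), and its part in other results was not tested. None of the acinar, immune, stromal or endothelial genes was called in any comparison. The endothelial sum was 8.68 to 12.4 and 1.93 to 7.24 CPM, against 7.76 to 7.97 and 5.89 to 9.89 CPM in the controls. Epcam, an epithelial adhesion protein, was low in replicate 1 of both 8-day groups, at 207 CPM in WT Ngn3 and 339 CPM in no-color cells against 1309 to 1944 CPM in the others, and the part of this in the high hormone levels of WT replicate 1 was not tested.

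Cell cycle genes had medians below 0 against the control at both times. In 25 of the 30 genes of the list every WT Ngn3 replicate of 2 days was below every GFP-only replicate, against 16.4% of all genes tested, with a median of -1.28 and 1 call, Top2a. At 8 days the median against no-color was -1.23, 6 genes had every replicate below (6.42% of all genes), and 5 were called lower: Top2a, Mki67, Ccna2, Birc5 and Cenpf. Of all genes tested, 0.794% were called lower at each time. Ccna2, cyclin A2, had 26.7, 14.9 and 10.6 CPM at 2 days and 3.20, 3.22 and 3.42 CPM at 8 days (-2.41 ± 0.49, adjusted p = 0.0658). Mki67, the Ki67 antigen, had 31.5, 20.9 and 32.3 CPM and then 12.6, 16.1 and 12.3 CPM (-1.06 ± 0.44, adjusted p = 0.422). From 2 to 8 days 5 of the 30 genes had all replicates lower, Ccna2, Mki67, Top2a, Cenpf and Kif11, and 1 had all higher, against 13.2% and 9.86% of all genes tested. The latter was Pcna, a clamp for DNA synthesis, at 46.3, 62.5 and 63.5 CPM after 33.8, 29.5 and 27.1 CPM. No gene of the list was called between the times. No-color replicate 3 had a summed level of 585 CPM, close to the WT Ngn3 cells of 8 days at 608 to 701 CPM, against 1222 and 1838 CPM in the other 2 no-color replicates. Of 7 Cdk inhibitors none was called in any comparison, and Cdkn1a, which encodes p21, had 683, 684 and 1011 CPM at 2 days and 923, 678 and 839 CPM at 8 days.

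No gene of the endoplasmic reticulum stress list was called between 2 and 8 days of WT Ngn3. In 7 of 14 genes of endoplasmic reticulum stress every 8-day replicate was above every 2-day replicate, in 3 every one was below, and none was called, with a median of 0.44. Over all genes tested these shares were 9.86% and 13.2%. Between no-color cells of 8 days and GFP-only cells of 2 days, 7 of the 14 were also all above and 0 all below, with a median of 0.69, against 8.32% and 14.4% of all genes. Asns, asparagine synthetase, had 83.4, 104 and 79.3 CPM at 2 days and 229, 207 and 367 CPM at 8 days (1.59 ± 0.28, adjusted p = 0.0509). Trib3, a stress-induced pseudokinase, had 34.0, 23.5 and 17.1 CPM and then 79.9, 42.2 and 65.3 CPM (1.33 ± 0.32, adjusted p = 0.132). In the control cells Asns went from 89.9, 89.3 and 88.1 CPM to 172, 200 and 110 CPM, in the same direction.

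Among 19 interferon-response genes, 9 had every 8-day replicate below every 2-day replicate, against 13.2% of all genes tested, with a median of -0.89 and no call. Between the controls 3 of the 19 were all below, against 14.4% of all genes. Rsad2, the antiviral protein viperin, which rose at 2 days from 0.90 CPM or less to 61.5, 35.9 and 67.1 CPM, had 8.75, 21.9 and 13.1 CPM at 8 days (-1.93 ± 0.61, adjusted p = 0.256). The RNA sensor Ifih1 rose at 2 days to 50.5, 41.0 and 36.8 CPM and had 22.8, 32.9 and 17.5 CPM at 8 days. Of 20 immediate early genes, which respond to cell handling, 6 were above and 2 below in every replicate, against 9.86% and 13.2% of all genes tested, and none was called (median 0.41). Fos, for example, had 1934, 1551 and 2076 CPM and then 3888, 2433 and 2456 CPM.

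**Figure D5:**
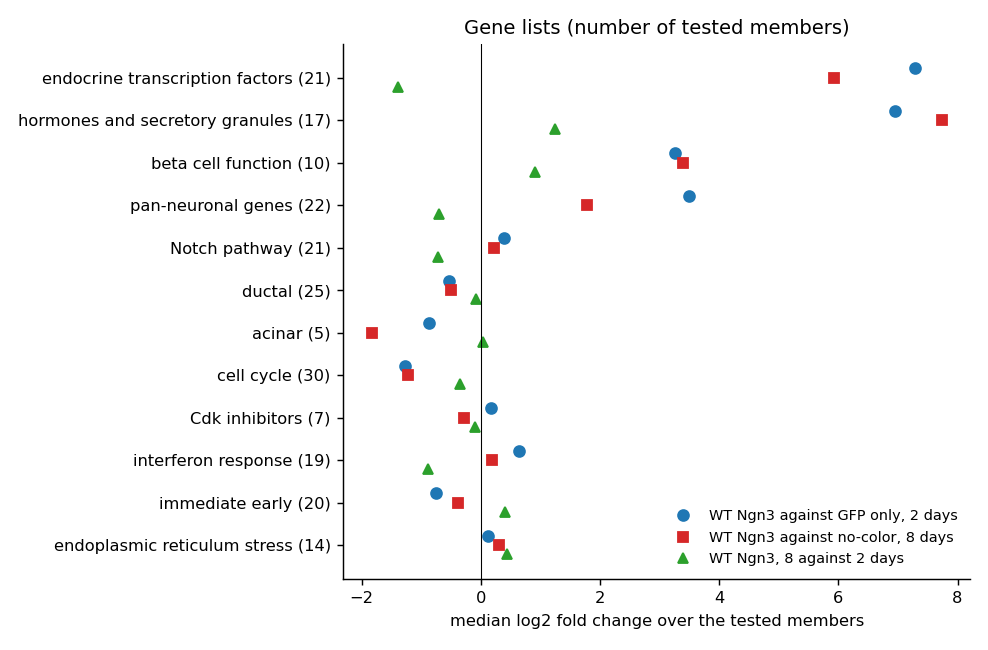
Median fitted log2 fold change over the tested members of each gene list (number in brackets) for WT Ngn3 at 8 against 2 days, WT Ngn3 against GFP only at 2 days and WT Ngn3 against no-color at 8 days. Endocrine factors have medians of 7.29 at 2 days and 5.93 at 8 days, and cell cycle genes of -1.28 and -1.23.

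The 136 genes lowered at 2 days were described in the same way, and 3 of them were called higher at 8 than at 2 days. Their median was -1.64 against GFP only at 2 days and -1.01 against no-color at 8 days, with every 8-day WT replicate below every no-color replicate in 75 (55.1%), against 6.42% of all genes. From 2 to 8 days of WT Ngn3 the median was 0.81, and 75 genes (55.1%) had every 8-day replicate above every 2-day replicate, against 9.86% of all genes. That comparison again holds the libraries by which the genes were chosen, and the 2-day median is again favoured by the choice. The 39 genes that were lower at both times included secreted defence proteins, named after their values were seen. Lcn2, lipocalin 2, had 874, 1759 and 1762 CPM at 2 days and 4844, 2926 and 6465 CPM at 8 days, and Ltf, lactoferrin, had 11, 67.9 and 33.2 CPM and then 152, 72.5 and 125 CPM. Both were higher at 8 days in every WT replicate, and both remained below no-color cells, which had 27900, 10040 and 34440 CPM of Lcn2 and 2873, 1046 and 633 CPM of Ltf.

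By the calls 1 gene was late, and the number moved with the processing, to 18 with DESeq2 and 15 without a filter. With 1 replicate left out it was 0 to 2. At an unadjusted p under 0.05, 713 genes were higher at 8 than at 2 days. The single call thus does not show how many genes appeared late. Of the 240 genes higher than no-color at 8 days, 113 had not been called at 2 days. Their median was 0.45 against GFP only at 2 days, 0.16 from 2 to 8 days of WT Ngn3 and -1.28 between no-color cells of 8 days and GFP-only cells of 2 days, and 16 of them (14.2%) had every 8-day WT replicate above every 2-day replicate and 18 (15.9%) every one below, near the 9.86% and 13.2% of all genes tested. The value between the controls holds the no-color libraries by which the genes were chosen. Csf1, a macrophage growth factor named after its values were seen, had 1106, 1069 and 882 CPM in WT Ngn3 cells at 2 days and 753, 638 and 267 CPM at 8 days, while the controls had 1072, 687 and 1021 CPM at 2 days and 113, 247 and 103 CPM at 8 days. For genes of this kind the time and the kind of control cell cannot be told apart.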

How the data were processed

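RNA of sorted pools was amplified by Smart-seq2, which has no molecular identifiers, so floors cover counting error only. The authors aligned single-end reads to mm10 with GSNAP and counted them per Ensembl gene with HTSeq (0.5.3p3); the deposited values are raw counts, not normalized, for 46078 gene rows and 92 spike-ins. Of all reads, 22.52% were not aligned, 14.37% fell on no gene and 8.056% were ambiguous, and these were left out. Symbols were found for 45143 gene rows. Libraries needed over 1000000 reads on genes, under 30% spike-in reads and at least 10000 detected genes. Counts of technical repeats were summed per biological replicate, filtered with filterByExpr, scaled by TMM and fitted over 4 groups of 3 replicates with edgeR 4.0.16 (robust quasi-likelihood test, two-sided, Benjamini-Hochberg adjusted p, threshold 0.05) in R 4.3.3. DESeq2 1.42.0 was an alternative, with other scaling, filters, samples and a replicate block. The scripts were tested on simulated data. A list median is of fitted log2 fold changes, or, where said, with genes that have a group without reads set against 3 reads over that group.

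Genes could be named if they were Neurog3 or genes the study follows, if they had the largest calls between 8 and 2 days or in the faded, stayed and late classes with replicates that do not overlap and a mean of at least 5 CPM in the higher group, or if they belonged to 16 gene lists. Not all genes that met this rule are named. The members, lists and tests were chosen with earlier results of these data known. Of the genes called between the times, 1 is not reported here by name, nor is 1 list member.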

Additional observations from a re-analysis of the deposited data

Results flagged for a closer look

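The WT Ngn3 pool of 8 days that was left out for its 849278 reads, from replicate 2, held 435.7 reads of Sst and 332 reads of Ghrl in 1000000 reads on genes. The other pool of replicate 2 held 8.90 and 1.32, and the pools of replicate 1 held 429.5 and 3063 for Sst. The left-out pool stood out because it is in no comparison of the report, only in the alternative with no library limit, and lies above the no-color cells, at 9.16 CPM or less for Sst and 6.48 CPM or less for Ghrl. The part of the low depth in these values was not tested.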

How the results depend on the processing

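Counts are given for WT Ngn3 at 8 against 2 days, WT Ngn3 against GFP only at 2 days, WT Ngn3 against no-color at 8 days and no-color at 8 days against GFP only at 2 days, then the interaction and the faded, stayed and late genes. They were 14, 509, 376, 36, 0, 5, 125 and 1. DESeq2 gave 372, 934, 1915, 1172, 92, 86, 268 and 18. No filter gave 424, 1011, 1818, 1021, 413, 123, 246 and 15. With 1 pool per replicate they were 0, 164, 34 and 0, with 0 faded, 27 stayed and 0 late genes. A fit of only the groups compared gave 3, 2641, 24 and 0, with 2 faded, 16 stayed and 0 late. Without passage 5 they were 0, 926, 719 and 1, with 0 faded, 208 stayed and 0 late. All 7 groups gave 34 calls between the times, 599 at 8 days, 81 between the controls and 15 faded. The filter of the study gave 39 and 17 faded, RLE scaling 8 between the controls and 8 faded, no library limit 15 between the controls and 8 faded, and both no-color groups 776 at 8 days, 258 between the controls, 194 stayed and 2 late.

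Leaving out 1 replicate gave 0 to 121 calls between the times, 150 to 748 at 2 days, 201 to 2246 at 8 days (2246 without no-color replicate 2), 0 to 1725 between the controls (1725 without the same replicate), 0 to 0 for the interaction, 0 to 31 faded, 75 to 184 stayed and 0 to 2 late genes.

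The replicate block gave 28 calls between the times, 13 of them among the 14 (Insm1 was lost, adjusted p = 0.0515), with 651 at 8 days, 62 between the controls and 8 faded. Same-numbered WT replicates of the 2 times had correlated deviations of 0.0006, 0.035 and -0.052. Those of WT and control replicates were 0.273, 0.066 and 0.227 at 2 days and 0.299, 0.068 and 0.083 at 8 days, each above 0. Unlike numbers of WT and control gave -0.244 to -0.0107 at 2 days and -0.197 to 0.0982 at 8 days. The main fit did not pair the samples, so it may ignore a pairing of WT and control replicates.

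For 59 genes chosen for these checks, not all of them named in the text, 1076 of 1295 values kept sign and side of the threshold. Of the others, 139 were weaker, 63 stronger and 17 reversed.

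With 1 replicate left out, the log2 fold change from 2 to 8 days changed sign for these genes: Cdkn1a (-0.072 to 0.24), St18 (-1.85 to 0.18), Ghrl (-5.57 to 3.02), Chga (-0.0021 to 1.37), Scg3 (-0.30 to 1.65), Pcsk1 (-0.69 to 1.80), Ptprn2 (-0.83 to 0.0058), Dll4 (-0.96 to 0.30), Prom1 (-0.15 to 0.077). That of Cdkn1a was -0.064 with 1 pool per replicate and -0.046 without passage 5, that of St18 0.049 without passage 5 and that of Prom1 0.10 with 1 pool per replicate. The cause was not tested. At 8 days 3 reads are 0.307 to 0.989 CPM in a replicate, so lower levels rest on 2 reads or fewer.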
